A study of Mus musculus with 12 samples.

Results

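The 9 genes described here encode 8 CC chemokines (*Ccl2*, *Ccl3*, *Ccl4*, *Ccl5*, *Ccl7*, *Ccl8*, *Ccl9* and *Ccl20*) and fractalkine (*Cx3cl1*). They were taken by gene symbol from a table of 46731 genes. The rule held no measured value, but the 9 genes were chosen with earlier results of these data known. All 9 lay above 0 in at least 1 library, but only 8 passed the filter on low values, since *Ccl4* stayed below it. The RNA came from 12 ATDC5 cultures, a chondrogenic mouse line derived from a teratocarcinoma. The cells carried a lentiviral cassette, either a control hairpin (shRNA-NC, genotype wild type) or a hairpin against *Ddx5* (shRNA-*Ddx5*), the gene of an RNA helicase, and each was cultured for 6 h without stimulation (medium) or with IL-1β at 5 ng/ml plus TNF-α at 25 ng/ml (cytokines). Each of the 4 groups had 3 libraries, which the study calls biologically independent, and the gene counts of a library summed to 14119199 to 19276520 fragments. The hairpin was driven by a U6 promoter, transduced cells were selected with puromycin, and the cells were a line in culture rather than cartilage.

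Chemokines are small secreted proteins that guide leukocytes along a gradient through G protein-coupled receptors. The CC family, named for a pair of adjacent cysteines, mostly draws monocytes, macrophages, T cells and eosinophils. Fractalkine is made as a membrane protein with its chemokine domain on a mucin stalk and is released by the sheddases ADAM10 and ADAM17. IL-1β and TNF-α are known to switch on many of these genes through NF-κB, in chondrocytes and synovial cells among others, and the messages are short-lived.

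*Ddx5* itself was measured at 325, 337 and 294 FPKM (fragments scaled by gene length and by the size of the library) in the shRNA-NC libraries in medium against 90.7, 118 and 99.9 FPKM in shRNA-*Ddx5*, and at 327, 302 and 301 FPKM against 101, 93.6 and 104 FPKM with cytokines. The libraries followed their labels in both media. The labelled cell type was less clear. *Sox9*, a transcription factor of chondrocytes, was measured at 27.5 and 24.1 FPKM on average in shRNA-NC and shRNA-*Ddx5* cells in medium and at 8.76 and 5.40 FPKM with cytokines (n = 3 each). *Col2a1*, the collagen of hyaline cartilage, was at 12.4 and 0.899 FPKM in medium and at 6.33 and 0.779 FPKM with cytokines, and fell with the knockdown in both media (log2 fold changes -2.80 and -1.98, adjusted p = 4.86e-05 and 3.55e-04 by limma, fitted to all genes above 0 in any library). *Col11a1*, a minor cartilage collagen, rose with it, from 0.897 to 4.78 FPKM and from 0.284 to 3.04 FPKM (log2 fold changes 1.60 and 1.65, adjusted p = 2.04e-05 and 1.64e-05 by limma, fitted to all genes above 0 in any library). *Acan*, *Matn1* and *Matn3*, matrix genes of mature cartilage, had at most 4 fragments in any library, and 7 of 11 chondrocyte markers stayed under 1 FPKM in all 12 libraries. The summed level of the 11 was 42.9, 32.6, 16.3 and 10.6 FPKM on average in the same order, so the sum was lower with the knockdown and with the cytokines. Some members of low level rose with the knockdown. In medium *Sox6* rose from 0.17 to 0.91, *Col9a1* from 0 to 0.21 and *Hapln1* from 0 to 0.11 FPKM (adjusted p = 5.77e-06, 2.67e-05 and 0.00996 by limma, same fit). With cytokines *Sox6* rose from 0.12 to 0.33 and *Col9a1* from 0 to 0.073 FPKM (adjusted p = 0.00184 and 0.00714 by limma, same fit). *Hapln1* did not pass there (adjusted p = 0.179 by limma). The part of these markers in the chemokine results was not tested.

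Markers of cells that are known to make or receive these chemokines in joints were few. Of 12 leukocyte markers, *Ptprc*, *Tyrobp* and *Cd3e* had no fragment in any library, and 7 had at most 3 fragments in each library. The most abundant was *Cd14*, a receptor for lipopolysaccharide, at 6.21 FPKM on average, and the summed level of the list was 5.30 to 5.84 FPKM in shRNA-NC and 6.12 to 7.73 FPKM in shRNA-*Ddx5* in medium, and 8.11 to 10.7 FPKM and 11.8 to 12.3 FPKM with cytokines. Of 4 endothelial markers *Cdh5* had no fragment, *Pecam1* was the most abundant at 0.0498 FPKM, and the sums stayed at or below 0.1515 FPKM. *Cd14* made up most of the leukocyte sum. Among the lower markers *Lyz2*, the lysozyme of myeloid cells, had 1, 1 and 1 fragments in shRNA-NC and 15, 23 and 14 in shRNA-*Ddx5* libraries in medium, and 0, 2 and 1 against 9, 15 and 5 with cytokines. *Csf1r*, a receptor of macrophages, had 5, 16 and 0 against 31, 24 and 22 fragments in medium and 1, 4 and 2 against 22, 13 and 15 with cytokines. Both were higher in every shRNA-*Ddx5* library than in the shRNA-NC libraries of the same medium and stayed below the filter. By limma fitted to all genes above 0 in any library, both passed for the knockdown in each medium. Adjusted p was 8.35e-04 in medium and 0.00978 with cytokines for *Lyz2*, and 0.0058 and 0.014 for *Csf1r*. *Cd14* rose with the knockdown in cytokines (log2 fold change 0.37, adjusted p = 0.0261 by limma with the filter and 0.0537 without it). *Cd68*, a lysosomal protein abundant in macrophages, had means of 1.42 and 1.10 FPKM in medium and 1.76 and 1.40 FPKM with cytokines and passed no test. The leukocyte sum rose over the 4 groups in the order of the summed chemokines, as did *Cd14*. Its means were 3.88 and 4.29 FPKM in shRNA-NC and shRNA-*Ddx5* cells in medium and 7.17 and 9.50 FPKM with cytokines. *Cd68*, *Lyz2* and *Csf1r* did not keep that order. The part of these markers in the results was not tested. In bulk RNA fewer cells that express a gene and less RNA per cell cannot be told apart.

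Promoter sequence is shown because most of these genes rose with cytokines and because they differed in their response to the knockdown. RefSeq promoter windows of build GRCm38.p6, from 250 bases before to 50 after the start, matched 5 of the 9 genes. *Ccl2*, *Ccl4*, *Ccl5* and *Ccl7* had no entry. The last 100 bases before each start are given 5′ to 3′ with capitals for matches to 3 motifs. These were the κB consensus of NF-κB, the AP-1 motif TGANTCA, and the core of the TATA box, TATAA. Each was sought on both strands of the whole window, with the base before the start counted as -1. The *Ccl20* stretch is chr1:83116666-83116765 on the plus strand, that of *Cx3cl1* is chr8:94772080-94772179 on the plus strand, that of *Ccl8* is chr11:82115085-82115184 on the plus strand, and those of *Ccl9* and *Ccl3* are chr11:83578637-83578736 and chr11:83649379-83649478 on the minus strand.
Ccl20: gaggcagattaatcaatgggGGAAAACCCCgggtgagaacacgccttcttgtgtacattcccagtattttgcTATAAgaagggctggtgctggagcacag
Cx3cl1: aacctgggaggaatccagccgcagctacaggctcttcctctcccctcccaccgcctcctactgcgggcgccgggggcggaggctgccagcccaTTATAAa
Ccl8: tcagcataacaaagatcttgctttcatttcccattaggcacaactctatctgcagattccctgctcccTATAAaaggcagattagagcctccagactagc
Ccl9: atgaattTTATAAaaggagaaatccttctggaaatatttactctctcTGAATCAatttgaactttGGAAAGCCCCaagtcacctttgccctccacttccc
Ccl3: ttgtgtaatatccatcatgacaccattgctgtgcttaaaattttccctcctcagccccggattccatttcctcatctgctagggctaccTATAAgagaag

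The κB consensus was matched in *Ccl20*, where the match begins at -80, and in *Ccl9*, where it begins at -35, both as the reverse complement. The first holds GGGGTTTTCC and the second GGGGCTTTCC when read on the other strand. Among the 32851 RefSeq windows counted, 8.46% held such a match. This share and those of the other motifs below refer to the counted windows only, which need not be every window in RefSeq. Windows outside that count were not searched for the shares. *Ccl9* also held the AP-1 motif at -53, on both strands since the motif is its own reverse complement, and 7.81% of windows held it. Within the printed stretches the TATA motif lay at -28 in *Ccl20* and at -32 in *Ccl8*, at -11 in *Ccl3*, at -6 in *Cx3cl1* and at -92 in *Ccl9*, and 24.9% of windows held it. In *Cx3cl1* and *Ccl9* the capitals are longer by 1 base because the motif matched on both strands with an overlap. A match describes letters only, and a stretch without one says only that these letters are not in this window.

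The genes lie in 3 places. Coordinates in the table follow GRCm39. On chromosome 11 *Ccl2* (81926403 to 81928278, plus strand) is followed 8.3 kb on by *Ccl7* (81936538 to 81938351, plus strand), then by *Ccl11* and *Ccl12*, and by *Ccl8* (82006011 to 82007625, plus strand) 79.6 kb from the start of *Ccl2*. After a gap of 1346 kb past *Ccl1* come *Ccl5* (83416604 to 83421344, minus strand), *Ccl9* (83463743 to 83469462, minus strand), *Ccl6*, *Ccl3* (83538669 to 83540204, minus strand) and *Ccl4* (83553410 to 83555509, plus strand). *Cx3cl1* lies on chromosome 8 (95498808 to 95509055, plus strand) between *Ccl22* and *Ccl17*, and *Ccl20* alone on chromosome 1 (83094487 to 83096888, plus strand).

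Tests were run on log2(FPKM + 1), on which the changes of low genes are understated. limma was fitted once to the 12 libraries and the 12368 genes with at least 1 FPKM in at least 3 libraries, and adjusted p-values are Benjamini-Hochberg values over those genes, with a threshold of 0.05. Of the 8 genes tested, *Ccl3*, *Ccl8*, *Ccl9* and *Ccl20* passed the filter only through cytokine libraries, and *Ccl3* only through those of shRNA-*Ddx5*, so counts over the 8 are descriptions. For these 4 and any other named gene under 1 FPKM in every library of some group, the SE and adjusted p printed in the account of that gene are from a fit without the filter, over 27209 genes. The contrasts asked how the cytokines changed a gene in each line, how the knockdown changed it in each medium, and whether the knockdown effect differed between media (the interaction).

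**Figure D1:**
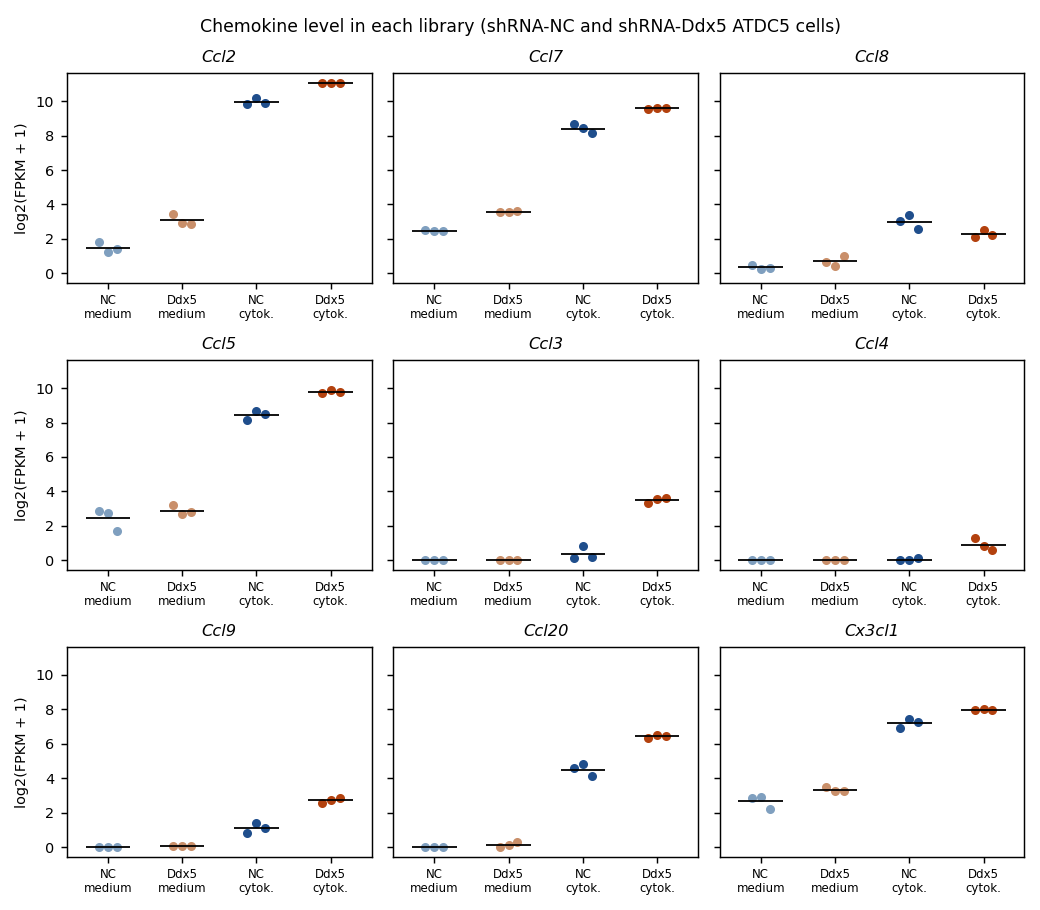
Level of each of the 9 genes as log2(FPKM + 1) (vertical axis) in the 3 libraries of each group (points, with their mean as a bar), for shRNA-NC (NC) and shRNA-*Ddx5* (Ddx5) cells in medium or with cytokines. The 4 genes *Ccl2*, *Ccl7*, *Ccl5* and *Cx3cl1* had values above 1 FPKM in medium, the other 5 lay below it, and *Ccl8* was the gene whose cytokine libraries were lower in shRNA-*Ddx5* than in shRNA-NC.

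*Ccl2* and *Ccl7*, neighbours that encode monocyte attractants acting mainly through the receptor CCR2, rose with the knockdown in both media and with the cytokines in both lines. *Ccl2* was measured at 2.47, 1.34 and 1.65 FPKM in shRNA-NC and at 9.73, 6.73 and 6.26 FPKM in shRNA-*Ddx5* cells in medium. With cytokines it was measured at 919, 1186 and 949 FPKM in shRNA-NC and at 2092, 2154 and 2140 FPKM in shRNA-*Ddx5*. All 4 groups stood apart, in the order shRNA-NC in medium, shRNA-*Ddx5* in medium, shRNA-NC with cytokines and shRNA-*Ddx5* with cytokines. The ratio of means between lines was 4.16 in medium (log2 fold change 1.60 ± 0.17 (SE), adjusted p = 2.83e-05 by limma) and 2.09 with cytokines (1.07 ± 0.17 (SE), adjusted p = 4.12e-04 by limma). The ratio of means between media was 559 in shRNA-NC and 281 in shRNA-*Ddx5* cells, with log2 fold changes of 8.51 and 7.98. The interaction of *Ccl2* was -0.53 with a 95% interval from -1.06 to -0.0017 and did not pass (adjusted p = 0.211 by limma). It is on the log2(FPKM + 1) scale, which understates the knockdown change at the low level in medium. The 2 ratios of means were therefore not themselves compared. Over the alternatives the interaction ranged from -0.96 to -0.36 (adjusted p from 0.085 to 0.39 by limma).

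*Ccl7* was measured at 4.72, 4.43 and 4.57 FPKM in shRNA-NC and at 10.6, 10.7 and 11.5 FPKM in shRNA-*Ddx5* cells in medium. With cytokines the values were 403, 342 and 281 FPKM in shRNA-NC and 739, 780 and 781 FPKM in shRNA-*Ddx5*. Here too no libraries of different groups overlapped. The knockdown ratio was 2.39 in medium (log2 fold change 1.10 ± 0.11 (SE), adjusted p = 1.83e-05 by limma) and 2.24 with cytokines (1.18 ± 0.11 (SE), adjusted p = 1.11e-05 by limma). The cytokine ratio was 74.8 in shRNA-NC and 70.0 in shRNA-*Ddx5* cells. The interaction was 0.08 with a 95% interval from -0.26 to 0.42 (adjusted p = 0.815 by limma). Although they lie 8.3 kb apart, the pair responded to the cytokines unequally. The ratio of *Ccl2* to *Ccl7* FPKM in medium was 0.522, 0.304 and 0.361 for shRNA-NC and 0.916, 0.628 and 0.545 for shRNA-*Ddx5* libraries, and with cytokines 2.28, 3.47 and 3.37 for shRNA-NC and 2.83, 2.76 and 2.74 for shRNA-*Ddx5* libraries. *Ccl7* was the more abundant message in the 6 libraries in medium and *Ccl2* in the 6 with cytokines.

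*Ccl8*, a further monocyte attractant of the same block, went the other way. In medium it had 4, 2 and 2 fragments in shRNA-NC and 5, 3 and 9 in shRNA-*Ddx5* libraries, near the floor of 3 fragments. With cytokines it was measured at 7.27, 9.50 and 4.89 FPKM in shRNA-NC and at 3.31, 4.80 and 3.60 FPKM in shRNA-*Ddx5*. The highest shRNA-*Ddx5* library, 4.80 FPKM, lay just under the lowest shRNA-NC library, 4.89 FPKM, so the groups were apart by a small margin. The ratio of means was 0.541 (log2 fold change -0.72 ± 0.22 (SE), adjusted p = 0.0427 by limma without the filter). In the fit with the filter (adjusted p = 0.0148 by limma) the call was lost without shRNA-NC cytokine replicate 2 (adjusted p = 0.0582, log2 fold change -0.52) and without shRNA-*Ddx5* cytokine replicate 1 (adjusted p = 0.0582, log2 fold change -0.63), by limma. *Ccl8* rose with the cytokines in both lines, by log2 fold changes of 2.65 in shRNA-NC and 1.59 in shRNA-*Ddx5* (adjusted p = 4.34e-05 and 8.78e-04 by limma without the filter). The ratio of *Ccl7* to *Ccl8* FPKM with cytokines was 55.5, 36.0 and 57.5 in shRNA-NC and 223, 163 and 217 in shRNA-*Ddx5* libraries. *Ccl11* and *Ccl12*, which lie between *Ccl7* and *Ccl8*, had 3 and 0 fragments in the 12 libraries.

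*Ccl5* (RANTES), *Ccl3* (MIP-1α), *Ccl4* (MIP-1β) and *Ccl9* (MIP-1γ) attract T cells and macrophages. *Ccl5* was measured at 6.38, 5.65 and 2.25 FPKM in shRNA-NC and at 8.11, 5.31 and 5.94 FPKM in shRNA-*Ddx5* cells in medium, where the groups overlapped. With cytokines the values were 285, 407 and 363 FPKM in shRNA-NC and 823, 932 and 889 FPKM in shRNA-*Ddx5*, and the lowest shRNA-*Ddx5* value was above the highest of shRNA-NC. The knockdown difference in medium was 0.44 ± 0.27 (SE) on the log2 scale (adjusted p = 0.196 by limma) and that with cytokines 1.34 ± 0.27 (SE), a ratio of 2.51 (adjusted p = 0.00184 by limma). The cytokine ratio was 73.9 in shRNA-NC and 136.5 in shRNA-*Ddx5*. That the rise passed in one medium and not in the other does not show a difference between media, and the interaction of 0.90 did not pass (95% interval 0.07 to 1.72, adjusted p = 0.177 by limma). Without shRNA-NC replicate 3 in medium, the library at 2.25 FPKM and the shallowest of the 12, the interaction was 1.27 (adjusted p = 0.00913 by limma).

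*Ccl3* had no fragment in any of the 6 libraries in medium. With cytokines it had 1, 11 and 2 fragments in shRNA-NC libraries, or 0.0758, 0.743 and 0.135 FPKM, and 117, 136 and 138 fragments in shRNA-*Ddx5* libraries, or 8.96, 10.8 and 11.1 FPKM. The shRNA-*Ddx5* libraries with cytokines thus stood alone. Their mean was 32.4 times that of shRNA-NC, and the ratio of the pooled fragments scaled by depth was 31.4 (95% interval 18.5 to 58.0, which covers counting error only). The size of the ratio rests on shRNA-NC replicate 2, which holds 11 of the 14 reference fragments, and without it the ratio of means was 97.8. The log2 fold change was 3.13, with an adjusted p of 3.02e-06 by limma without the filter. Against the floor of 3 fragments per library, the cytokines raised *Ccl3* at least 47.4-fold in shRNA-*Ddx5* cells. In shRNA-NC cells the rise did not pass (log2 fold change 0.36, adjusted p = 0.197 by limma without the filter), and *Ccl3* is listed at 0 in medium. The interaction of *Ccl3*, 3.13 (adjusted p = 1.79e-04 by limma without the filter), equals the knockdown effect with cytokines because both lines are at 0 in medium. *Ccl4*, which lies 13.2 kb from *Ccl3*, had no fragment in medium, 0, 0 and 1 fragment in shRNA-NC and 16, 8 and 5 fragments in shRNA-*Ddx5* libraries with cytokines. It was the one gene of the 9 below the filter. In the fit without the filter it rose with the knockdown in cytokines (log2 fold change 0.86 ± 0.14 (SE), adjusted p = 0.0018 by limma).

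*Ccl9* was not detected in shRNA-NC cells in medium and had 2, 3 and 2 fragments in shRNA-*Ddx5*, all at or under the floor. With cytokines it was measured at 0.737, 1.61 and 1.19 FPKM in shRNA-NC and at 5.01, 5.71 and 6.23 FPKM in shRNA-*Ddx5* cells, with no overlap. The ratio was 4.79 (log2 fold change 1.62, adjusted p = 3.18e-05 by limma without the filter). The cytokines raised *Ccl9* at least 21.6-fold in shRNA-NC cells, against the floor (adjusted p = 4.90e-04 by limma without the filter). In shRNA-*Ddx5* cells the reference was 7 fragments in all, and the ratio of pooled fragments scaled by depth had a 95% counting interval from 61.5 to 317 (adjusted p = 9.44e-07 by limma without the filter). The 2 figures have different references and do not compare the lines.

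*Ccl20*, the ligand of CCR6 that attracts Th17 cells and immature dendritic cells, was next to silent in medium. It had 0 fragments in the 3 shRNA-NC and 0, 1 and 3 in the shRNA-*Ddx5* libraries in medium. With cytokines it was measured at 22.8, 26.9 and 16.5 FPKM in shRNA-NC and at 79.3, 90.1 and 87.8 FPKM in shRNA-*Ddx5* cells, again with no overlap. The knockdown ratio was 3.89 (log2 fold change 1.94 ± 0.15 (SE), adjusted p = 2.03e-05 by limma without the filter). The cytokines raised *Ccl20* at least 108-fold in shRNA-NC cells, against the floor. In shRNA-*Ddx5* cells the reference was 4 fragments in all, and the ratio of pooled fragments scaled by depth had a 95% counting interval from 352 to 3313, which again does not compare the lines. The log2 fold changes were 4.50 and 6.31. *Ccl20* held the κB match at -80 that is printed above.

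*Cx3cl1*, fractalkine, had the highest mean of the 9 in shRNA-NC cells in medium, where it was measured at 6.33, 6.55 and 3.68 FPKM, against 10.02, 8.37 and 8.36 FPKM in shRNA-*Ddx5* cells. With cytokines the values were 119, 175 and 155 FPKM in shRNA-NC and 249, 255 and 246 FPKM in shRNA-*Ddx5*. The lines did not overlap in either medium. The knockdown ratio was 1.62 in medium (log2 fold change 0.63 ± 0.18 (SE), adjusted p = 0.0135 by limma) and 1.67 with cytokines (0.76 ± 0.18 (SE), adjusted p = 0.00525 by limma), the smallest rise with cytokines among the 7 genes that rose. The cytokine ratios were 27.1 and 28.1, and the interaction was 0.12 with a 95% interval from -0.43 to 0.68 (adjusted p = 0.817 by limma).

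**Figure D2:**
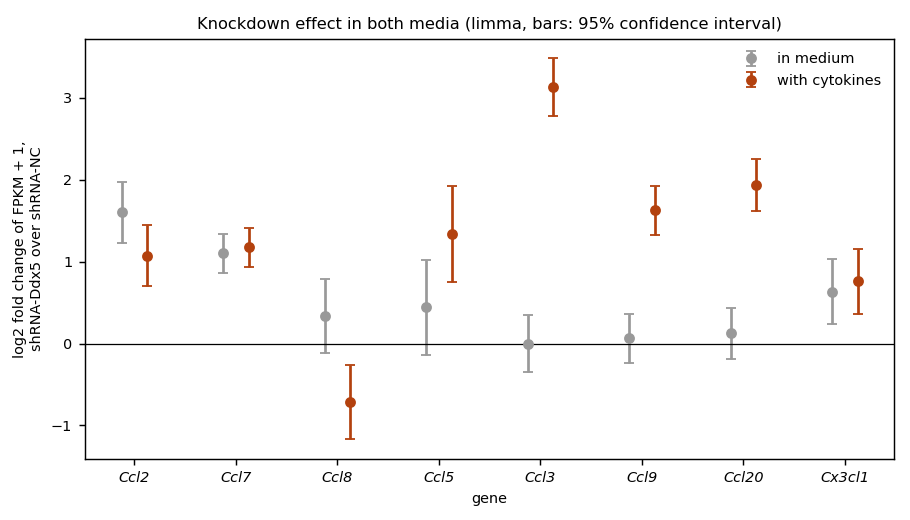
Knockdown effect, as the log2 fold change of FPKM + 1 between shRNA-*Ddx5* and shRNA-NC (vertical axis), for the 8 genes tested, in medium (grey) and with cytokines (orange). Points are limma estimates of the fit with the filter, from 3 libraries a group, and bars are 95% confidence intervals. The points of *Ccl7* and *Cx3cl1* lie close together in the 2 media, those of *Ccl3*, *Ccl9* and *Ccl20* leave 0 with cytokines, and that of *Ccl8* falls below 0.

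Counted together, the knockdown in medium raised 3 of the 8 genes (*Ccl2*, *Ccl7* and *Cx3cl1*) and lowered 0, where 25.3% of all 12368 genes rose and 21.7% fell. With cytokines 7 rose and 1 fell, against 23.5% and 22.1% of all genes. The cytokines raised 7 of 8 in shRNA-NC, where 18.6% of all genes rose, and 8 of 8 in shRNA-*Ddx5*, where 13.5% rose. The median log2 fold change of the 8 was 0.39 for the knockdown in medium, 1.26 for the knockdown with cytokines, 4.52 for the cytokines in shRNA-NC and 5.34 for the cytokines in shRNA-*Ddx5*, where the medians of all genes were 0.03, 0.01, 0.02 and 0.00. The interaction passed for 4 of 8, higher with cytokines in *Ccl3*, *Ccl9* and *Ccl20* and lower in *Ccl8*, against 3.46% of all genes in the first direction and 4.75% in the second. These 4 are the genes that passed the filter only through cytokine libraries, and 1 of them, *Ccl3*, passed when the fragments were fitted by voom. The voom interaction was 0.42 for *Ccl20* (adjusted p = 0.869), -0.27 for *Ccl9* (adjusted p = 0.902) and -1.82 for *Ccl8* (adjusted p = 0.162). Of the 9 genes, the lines did not overlap upward in 4 in medium, against 28.7% of the genes tested. The fourth was *Ccl9*, at 0 against 2, 3 and 2 fragments, all at or under the floor. With cytokines they did not overlap upward in 8, with the untested *Ccl4* among them, against 31.7%, where *Ccl8* did not overlap downward, as for 29.9% of the genes tested. The media did not overlap in 8 genes of the 9 in shRNA-NC, against 23.7% upward, and in 9 of 9 in shRNA-*Ddx5*, against 23.3%. The comparisons share groups, since each group enters 2 of the 4 simple contrasts.

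The order of levels changed with the medium. In shRNA-NC cells in medium *Cx3cl1*, *Ccl5* and *Ccl7* had overlapping ranges, with means of 5.52 ± 1.59, 4.76 ± 2.20 and 4.57 ± 0.15 FPKM (SD, n = 3), and *Ccl2*, at 1.82 ± 0.58 FPKM (SD, n = 3), lay below *Cx3cl1* and *Ccl7* and overlapped with *Ccl5*, whose lowest library was at 2.25 FPKM. In shRNA-*Ddx5* cells in medium *Ccl7* led at 10.9 ± 0.48 FPKM (SD, n = 3), clear of *Cx3cl1*, *Ccl2* and *Ccl5*, of which *Cx3cl1* overlapped with *Ccl2* and *Ccl2* with *Ccl5*. With cytokines *Ccl2* was the highest in both lines, at 1018 ± 146 and 2129 ± 32.2 FPKM (SD, n = 3). *Ccl5* and *Ccl7* came next and overlapped in shRNA-NC cells (352 ± 62.1 and 342 ± 60.9 FPKM, SD, n = 3), and lay apart in shRNA-*Ddx5* cells (881 ± 54.5 and 767 ± 23.8 FPKM, SD, n = 3). *Cx3cl1* and *Ccl20* followed in both lines. In shRNA-*Ddx5* cells *Ccl3* ranked above *Ccl9* and *Ccl8*, while in shRNA-NC cells it ranked below both and its range overlapped with those of *Ccl9* and *Ccl4*.

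The summed level of the 9 genes was 16.9 ± 4.07, 34.7 ± 3.96, 1892 ± 222 and 4133 ± 119 FPKM (SD, n = 3) in shRNA-NC and shRNA-*Ddx5* cells in medium and in shRNA-NC and shRNA-*Ddx5* cells with cytokines. *Ccl2* made up 10.96% ± 3.13, 21.7% ± 3.04, 53.7% ± 1.44 and 51.5% ± 0.71 of it (SD, n = 3), and *Cx3cl1* 32.3% ± 3.34, 25.7% ± 0.70, 7.88% ± 1.01 and 6.06% ± 0.16 (SD, n = 3), in the same order. With cytokines the shares of *Ccl2* were thus 52.3% to 55.2% in shRNA-NC and 50.9% to 52.3% in shRNA-*Ddx5* libraries, although the sum differed. The share of *Ccl20* was 0.933% to 1.30% in shRNA-NC and 1.98% to 2.13% in shRNA-*Ddx5* libraries with cytokines.

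**Figure D3:**
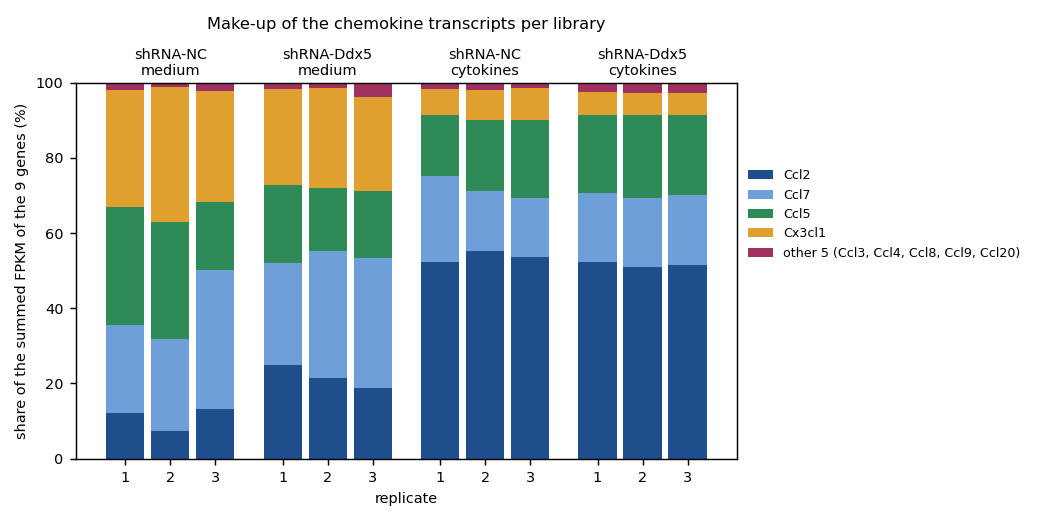
Share of each gene in the summed FPKM of the 9 genes (vertical axis, percent) in each of the 12 libraries (bars, by replicate and group). *Ccl2* makes up 7.40% to 13.3% of the bars of shRNA-NC in medium and over 50.8% of every bar with cytokines, where *Cx3cl1* makes up at most 8.74%.

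The spread within groups was not even. With cytokines the coefficient of variation of *Ccl2*, *Ccl5*, *Ccl7* and *Cx3cl1* was 14.3% to 18.9% in shRNA-NC and 1.51% to 6.19% in shRNA-*Ddx5* libraries (n = 3 each). shRNA-NC replicate 2 was the highest of its cytokine group for 7 of the 9 genes, all but *Ccl7* and *Ccl4*. Leaving it out changed the call of *Ccl8* given above.

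Around the 9 genes, most of the CC family was silent. Of 15 other CC chemokine genes 7 had no fragment in any library and 13 stayed under 1 FPKM. *Ccl25*, a chemokine of thymus and gut, was the most abundant at 3.76 FPKM on average and passed no test. *Ccl17*, a ligand of CCR4 that lies 26.9 kb from *Cx3cl1*, was measured at 0, 0.168 and 0 FPKM in shRNA-NC and at 0.373, 0.415 and 0.340 FPKM in shRNA-*Ddx5* cells in medium, and at 0.857, 2.98 and 1.56 FPKM and 5.11, 6.72 and 5.84 FPKM with cytokines. It rose with the knockdown in cytokines (ratio 3.27, log2 fold change 1.36 ± 0.23 (SE), adjusted p = 0.00202 by limma without the filter), with no overlap, and its interaction of 0.98 did not pass (adjusted p = 0.159 by limma without the filter). *Ccl22*, on the other side of *Cx3cl1*, and *Ccl27a* stayed below the filter, with means of 0.160 and 0.406 FPKM. In the fit without the filter *Ccl22* rose with the knockdown in cytokines (log2 fold change 0.34, adjusted p = 0.00689 by limma), from 0, 7 and 8 fragments to 13, 14 and 12 fragments in a library. *Ccl28*, a mucosal chemokine, passed that fit for the knockdown in medium at 0.0218 and 0.0753 FPKM on average (log2 fold change 0.07, adjusted p = 0.0373 by limma), with 5 and 17 fragments over the 3 libraries.

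**Figure D4:**
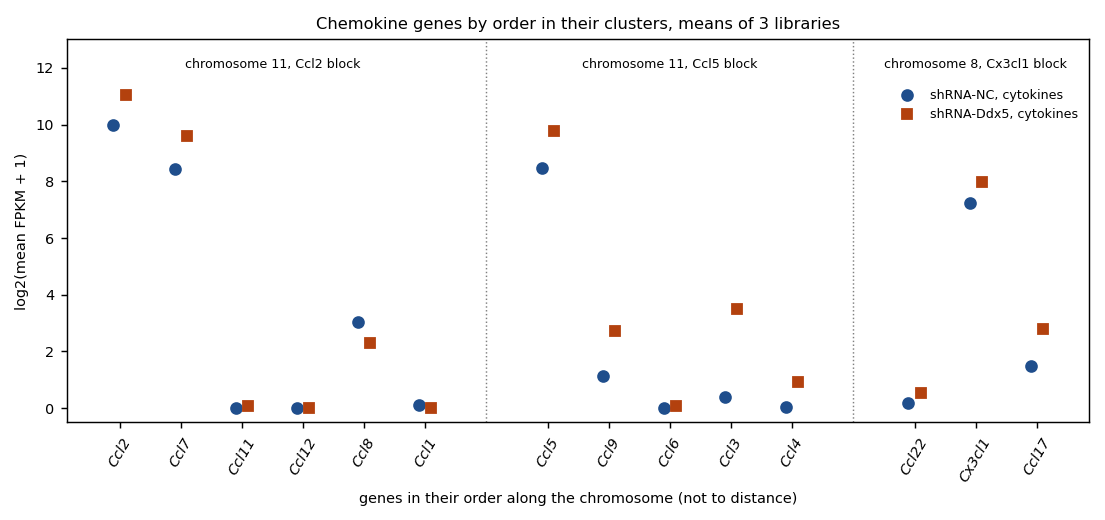
Mean level over 3 libraries with cytokines, as log2(mean FPKM + 1) (vertical axis), of chemokine genes in their order along the chromosome (horizontal axis, not to distance) in 2 blocks of chromosome 11 and 1 of chromosome 8, for shRNA-NC (circles) and shRNA-*Ddx5* (squares). Expressed genes lie beside genes at or near 0 in both blocks of chromosome 11, and *Ccl8* is the gene above 1 FPKM whose square lies below its circle.

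The receptors of these chemokines were nearly absent. None of 15 CC and CX3C receptor genes passed the filter on low values, and *Ccr1*, *Ccr2*, *Ccr8* and *Ackr1*, for example, had no fragment in any library. *Cx3cr1*, the receptor of fractalkine, had 2 fragments in all 12 libraries together. The most abundant was *Ccrl2*, an atypical receptor, at 0.0436 and 0.00901 FPKM on average in shRNA-NC and shRNA-*Ddx5* cells in medium and at 0.568 and 1.09 FPKM with cytokines, followed by *Ackr4*, *Ccr10* and *Ccr7* at 0.0919 FPKM or less on average over the 12 libraries. Without the filter *Ccrl2* rose with the cytokines in both lines (adjusted p = 0.0383 in shRNA-NC and 0.00155 in shRNA-*Ddx5* by limma), and its knockdown difference with cytokines had an adjusted p of 0.0857 by limma. *Ccr7*, a homing receptor of T cells and dendritic cells, had 2, 4 and 5 fragments in shRNA-*Ddx5* cells in medium and 0 in the other 9 libraries, and passed the same fit for the knockdown in medium (log2 fold change 0.14, adjusted p = 9.51e-04 by limma).

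The sheddases of fractalkine were expressed in every group. *Adam10* was measured at 57.3, 47.9, 33.4 and 36.8 FPKM on average in shRNA-NC and shRNA-*Ddx5* cells in medium and in both lines with cytokines in that order, and *Adam17* at 12.4, 13.2, 12.7 and 12.8 FPKM. Neither passed a knockdown test. Of the 4 genes listed, the knockdown in medium lowered 1 (21.7% of all genes) and that with cytokines raised 1 (23.5% of all genes), and both were *Rhbdf2*, which encodes an iRhom that helps ADAM17 to mature. *Rhbdf2* was measured at 4.80, 5.41 and 4.51 FPKM against 1.96, 1.79 and 2.08 FPKM in medium, and at 3.01, 4.39 and 3.82 FPKM against 5.92, 6.23 and 5.70 FPKM with cytokines, with shRNA-NC first. The lines were apart in both media and in opposite directions, and the interaction was 1.57 ± 0.15 (SE) (adjusted p = 2.26e-04 by limma). *Rhbdf1* had means of 7.34, 6.89, 13.1 and 12.8 FPKM.

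The genes of the relay from the IL-1 and TNF receptors to NF-κB rose and fell with the knockdown in numbers near those of all genes. Of 27 tested out of 30 listed, 7 rose and 7 fell in medium, where 25.3% and 21.7% of all genes did, and 9 rose and 5 fell with cytokines, against 23.5% and 22.1%, with medians of -0.03 and 0.14 beside 0.03 and 0.01 for all genes. The cytokines raised 14 in shRNA-NC and 16 in shRNA-*Ddx5*, against 18.6% and 13.5% of all genes. *Nfkbia*, the NF-κB inhibitor IκBα and itself an NF-κB target, was the most abundant, at 22.6 and 27.3 FPKM in medium and 215 and 204 FPKM with cytokines, followed by *Tnfrsf1a* (67.5, 83.8, 63.9 and 108 FPKM), *Rela* (40.1, 36.1, 81.3 and 68.0 FPKM) and *Tnfaip3* (1.75, 1.69, 74.6 and 88.9 FPKM). *Tnfrsf1a*, the main TNF receptor, rose with the knockdown in both media (log2 fold changes 0.30 and 0.75, adjusted p = 0.0275 and 1.28e-04 by limma). The interaction passed for 4 of the 27, against 3.46% of all genes upward and 4.75% downward, higher with cytokines in *Relb* (0.94), *Nfkbie* (1.11) and *Tnip1* (1.66) and lower in *Nfkbiz* (-0.76). *Nfkbie* and *Tnip1* encode inhibitors of the pathway. *Tnip1* fell with the knockdown in medium, from 9.85 to 6.77 FPKM, and rose with cytokines, from 19.8 to 44.9 FPKM.

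Among genes of proteins that bind chemokine messages and set their stability, 4 of the 9 tested fell and 1 rose with the knockdown in medium, where 21.7% and 25.3% of all genes did. With cytokines 3 fell and 1 rose, against 22.1% and 23.5%, and the medians were -0.31 and -0.02. The rise in medium was that of *Elavl1*, which encodes HuR, a protein known to stabilise AU-rich messages rather than to degrade them (20.6 and 25.4 FPKM on average). *Zfp36l2*, a tristetraprolin relative that destabilises AU-rich messages, was measured at 136, 132 and 83.5 FPKM in shRNA-NC and at 61.1, 54.2 and 53.9 FPKM in shRNA-*Ddx5* cells in medium, and at 205, 217 and 230 FPKM and 74.5, 75.4 and 80.7 FPKM with cytokines. It was lower in every shRNA-*Ddx5* library (log2 fold changes -1.01 and -1.49, adjusted p = 3.33e-04 and 2.23e-05 by limma), while *Zc3h12a*, the RNase Regnase-1, rose with cytokines from 14.5 to 31.2 FPKM (log2 fold change 1.10, adjusted p = 0.00238 by limma). *Rc3h1* and *Zc3h12c* fell in both media. *Zfp36l1* fell in medium (55.8 to 41.3 FPKM), and *Khsrp* (38.5 to 42.7 FPKM with cytokines) and *Hnrnpd* (28.9 to 31.1 FPKM) passed neither knockdown test. No interaction passed among these 9 genes by limma. Whether these factors bear on the chemokine levels was not tested.

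Syndecans and glypicans, the core proteins whose heparan sulfate chains hold chemokines at the cell surface, included several genes that rose with the knockdown. Of 6 tested out of 8 listed, 4 rose in medium and 5 with cytokines, where 25.3% and 23.5% of all genes did, and 0 fell in either medium, with medians of 0.70 and 0.52. *Sdc3*, the most abundant, was measured at 54.9 and 134 FPKM on average in shRNA-NC and shRNA-*Ddx5* cells in medium and at 34.6 and 106 FPKM with cytokines (log2 fold changes 1.30 and 1.62, adjusted p = 5.90e-04 and 1.34e-04 by limma). *Sdc1* rose in both media (means of 21.2 and 40.2 FPKM, then 27.8 and 38.5 FPKM with cytokines), as did *Sdc2* (31.1 and 45.3 FPKM, then 22.7 and 27.7 FPKM). *Sdc4* was at 23.7 and 23.9 FPKM in medium and rose from 92.7 to 139 FPKM with cytokines.

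The CXC chemokines, which include attractants of neutrophils and of activated T cells, are the family nearest to these genes. Of 8 tested out of 10 listed, the knockdown raised 4 in medium, where 25.3% of all genes rose, and 6 rose and 1 fell with cytokines, against 23.5% and 22.1%. Their interaction passed for 5 genes, against 3.46% of all genes upward and 4.75% downward, higher with cytokines in *Cxcl9* and *Cxcl12* and lower in *Cxcl1*, *Cxcl3* and *Cxcl5*. *Cxcl9* had no fragment in medium and passed the filter only through cytokine libraries, so its interaction equals its knockdown effect with cytokines. *Cxcl2* and *Cxcl11* also passed the filter only through cytokine libraries, so the counts over the 8 are descriptions. The fall with cytokines was that of *Cxcl11*. Without the filter neither *Cxcl2* nor *Cxcl11* passed for the knockdown with cytokines (log2 fold changes 0.39 and -0.59, adjusted p = 0.0819 and 0.0511 by limma). *Cxcl1* was measured at 4.88, 5.26 and 2.37 FPKM in shRNA-NC and at 26.0, 23.9 and 25.8 FPKM in shRNA-*Ddx5* cells in medium, and at 2334, 1834 and 1589 FPKM and 1998, 2159 and 2060 FPKM with cytokines, where the lines overlapped (interaction -2.27 ± 0.29 (SE), adjusted p = 8.52e-04 by limma). The lines of *Ccl2* were apart in both media. *Cxcl5* had means of 5.04, 44.0, 914 and 1938 FPKM, *Cxcl3* of 3.45, 63.8, 298 and 1683 FPKM, and *Cxcl12*, which fell with the cytokines, of 145, 315, 44.2 and 187 FPKM in the 4 groups. The interaction was -1.79 for *Cxcl5*, -1.42 for *Cxcl3*, 0.68 for *Cxcl9* and 0.97 for *Cxcl12*. A difference of *Ccl* from *Cxcl* genes as families was not tested.

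Across the 12 libraries the 8 genes tested were correlated with each other, from a Pearson r of 0.462 between *Ccl3* and *Ccl8* to 0.998 between *Ccl5* and *Cx3cl1*. These values describe log2(FPKM + 1) in 12 libraries of 4 groups, so they mostly follow the 4 group means. The genes with the most similar pattern over all genes tested were *Lrig1*, *Ccl7* and *Vcam1* for *Ccl2*, and *Ccl2*, *Bmper* and *Tnfrsf1b* for *Ccl7*. For *Ccl5* they were *Cx3cl1*, *Sdc4* and *Spsb1*, and for *Cx3cl1* they were *Ccl5*, *Ccl2* and *Lrig1*. *Ccl20* was closest to *Gbp5*, *Nos2* and *Il6*, *Ccl3* to an unnamed locus, *Ptx3* and *Lbp*, and *Ccl9* to *Oasl2*, *Ifit3* and *Susd6*. *Ccl8* was closest to *Phlda1*, *H2-M3* and *Noct*, at an r of 0.986, 0.980 and 0.980, the lowest of the 8 sets, where the others ranged from 0.994 to 1.00.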

How the data were processed

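Poly(A) RNA of 12 ATDC5 cultures (4 groups of 3) was sequenced. Fragments were assigned to genes by the authors (featureCounts), and the deposited values are FPKM. The submitters' processing notes name HISAT2 2.0.5, featureCounts 1.5.0-p3, DESeq2 1.20.0 and mm10, whereas the coordinates in the table match GRCm39 (99.95% of 37131 shared symbols). Strandedness is not given in the sources used here, so antisense genes overlapping *Ccl3*, *Ccl5* and *Cx3cl1* (12, 70 and 957 fragments against 405, 33118 and 66056) cannot be separated from them. Within a library the products of FPKM and length were whole multiples of a step (tolerance 0.01), which gave the fragments.

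Log2(FPKM + 1) of genes with at least 1 FPKM in at least 3 libraries was fitted with limma 3.58.1 in R 4.3.3 (eBayes with trend, 4 group means, no covariate), for 5 contrasts with Benjamini-Hochberg adjustment. On simulated data for the knockdown in medium (12368 genes), 187 of 200 changed genes were recovered, 91 of 100 at 2-fold and 96 of 100 at 4-fold, and 9 unchanged genes were called. The simulated dispersion was a fixed value, the same for every gene and not fitted to these data. Apart from the changes set, the simulated libraries differed in depth only. These rates need not hold for genes of wider spread. The 9 genes and the other gene lists were chosen with earlier results of these data known. From each other list the 4 genes of highest mean FPKM, other CC chemokines and receptors that passed, and genes that passed the interaction were named, with a few others named after their values were seen (*Elavl1*, *Rc3h1*, *Zc3h12a*, *Zc3h12c* and marker genes). For likeness, the 3 genes of highest Pearson r were taken. Floors (3 fragments) and counting intervals (95%) cover counting error only. The alternatives were another pseudocount, other filters, scalings and priors, voom, a replicate block, a limit on the fold, fewer groups and each library left out. Plots were made in Python 3.11.15 (matplotlib 3.10.9).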

Additional observations from a re-analysis of the deposited data

Results flagged for a closer look

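The interaction of knockdown and cytokines passed for 4 of the 8 genes tested on the log2(FPKM + 1) scale (limma, Benjamini-Hochberg over 12368 genes). All 4 lay below 1 FPKM in medium, where this scale holds any knockdown effect near 0, so the test does not show that their knockdown ratios differed between media. The difference on the log2(FPKM + 1) scale was 3.13 for *Ccl3* (adjusted p = 3.74e-05, range over its alternatives 1.25e-06 to 0.014), 1.81 for *Ccl20* (adjusted p = 4.67e-04, range 1.43e-04 to 0.869), 1.56 for *Ccl9* (adjusted p = 6.69e-04, range 1.92e-04 to 0.902) and -1.05 for *Ccl8* (adjusted p = 0.0492, range 0.0162 to 0.162). In medium *Ccl3* had 0 fragments in both lines, and *Ccl9* and *Ccl20* had at most 3 fragments in a library, so no knockdown ratio in medium can be given for these 3. That of *Ccl8*, which had at most 9 fragments in a library, was 2.26 (95% counting interval 0.926 to 6.06). Without the filter *Ccl3*, *Ccl9* and *Ccl20* passed and *Ccl8* did not (adjusted p = 0.112 by limma). When the fragments were fitted by voom, *Ccl3* passed and the other 3 did not. There *Ccl9* turned to -0.27 (adjusted p = 0.902), while *Ccl8* was at -1.82 (adjusted p = 0.162). With 3 libraries a group, no single library was compared with its group for outlying values.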

How the results depend on the processing

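Of 891 values of single genes under the alternatives, 854 kept their direction and their side of the threshold, 24 lost and 6 gained a call, and 7 changed sign, all 7 of them interactions. *Ccl7* had an interaction of -0.0622 with a pseudocount of 0.1, -0.14 after quantile normalization, -0.0751 by voom and -0.0562 to 0.203 when single libraries were left out, the lowest without shRNA-NC cytokine replicate 3, *Cx3cl1* of -0.15 after quantile normalization and -0.0299 to 0.347 when single libraries were left out, the lowest without shRNA-NC cytokine replicate 1, and *Ccl9* of -0.27 by voom. The 3 knockdown calls in medium stayed at 3 and the 8 with cytokines ranged over 6 to 8 when single libraries were left out, and over 2 to 4 and 6 to 9 under the other alternatives. The cytokine calls ranged over 7 to 8 in either line without single libraries. The 4 interaction calls became 2 with a pseudocount of 0.1 and 1 by voom. They became 1 with a filter in 6 libraries, under which *Ccl3* and *Ccl9* were not tested. When single libraries were left out they ranged over 2 to 4. Without any of the shRNA-*Ddx5* cytokine libraries *Ccl3* fell below the filter and was not tested. The lower counts of calls without those libraries include this missing test. *Ccl20* lost its interaction with a pseudocount of 0.1 (1.19, adjusted p = 0.154) and by voom (0.42, adjusted p = 0.869). *Ccl8* lost the call of its interaction under 16 of 21 alternatives, where the value ranged from -0.86 to -1.82, beside -1.05 in the main fit. *Ccl3* kept its interaction under all 17 in which it was tested, the fit without the filter included. *Ccl8* with cytokines also lost its knockdown call with a pseudocount of 0.1 (adjusted p = 0.0671 by limma). *Ccl3* gained a call for the cytokines in shRNA-NC under 4 of 18 alternatives, as with a pseudocount of 0.1 (1.71, adjusted p = 0.0213), and *Ccl9* one for the knockdown in medium by voom (2.56, adjusted p = 0.0347). The causes were not tested.

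With a difference of 1 or more on the log2 scale also required, the calls among all genes fell from 5817 to 774 and from 5645 to 795 for the knockdown in medium and with cytokines, from 4181 to 495 and from 3344 to 637 for the cytokines in shRNA-NC and shRNA-*Ddx5*, and from 1016 to 245 for the interaction. The knockdown calls of *Cx3cl1* in both media and of *Ccl8* with cytokines fell under it. Without single libraries those counts ranged over 4762 to 6185, 4435 to 6023, 3166 to 4550, 2219 to 3826 and 493 to 1109. The lowest count for the cytokines in shRNA-*Ddx5*, 2219, came without shRNA-*Ddx5* replicate 3 in medium, and the interaction had its lowest counts without that library (546), shRNA-NC replicate 2 in medium (620) or shRNA-*Ddx5* cytokine replicates 1, 2 or 3 (551, 569 and 493).

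Libraries of the same replicate number did not deviate together across the groups (mean correlation of residuals -0.05, from -0.39 to 0.45). Between the lines in medium the same-number correlations were 0.04 to 0.45, with a mean of 0.27 against -0.14 for other numbers, and between shRNA-*Ddx5* in medium and shRNA-NC with cytokines they were -0.39 to -0.20, so the numbers were not taken to pair the libraries. With a replicate block, 3, 8, 7, 8 and 3 of the 8 genes were called in the 5 contrasts, and 687 genes in place of 1016 for the interaction, where *Ccl8* was lost (adjusted p = 0.0912).

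The limits are those of depth and of design. At 3 or fewer fragments a library, *Ccl3*, *Ccl4*, *Ccl9* and *Ccl20* in medium give no knockdown ratio, and ratios against 1 to 11 fragments, as for *Ccl3* and *Ccl4* in shRNA-NC with cytokines, are wide. One hairpin and 1 time point were sequenced, with 3 cultures a group, and protein was not analysed here.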
